A study of Mus musculus with 12 samples.

Results

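The 37 genes described here encode the machinery that builds and remodels the actin network of a leukocyte: the subunits of the Arp2/3 complex, the proteins that switch it on and off, actin itself, and the proteins that cap, bundle, elongate and store actin. They were chosen by name, and each was taken as the row of the TPM table (a share of all transcripts, scaled to a fixed total and corrected for transcript length) that carries its symbol. All 37 were found among the 48623 genes listed. All 37 also passed the filter on low values, a mean log2(TPM + 1) above 1.5 over all libraries, which 11204 genes passed.

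Actin monomers assemble into filaments, and the Arp2/3 complex nucleates a new filament as a branch on the side of an old one. WASP-family proteins, acting downstream of the small GTPases Cdc42 and Rac, activate the complex, whereas coronins and glia maturation factor take branches apart again. In microglia, the resident macrophages of the brain, branched actin drives the ruffling of the surface, the extension of processes and the engulfment of particles. TREM2, the surface receptor altered in these mice, signals through the adaptor encoded by *Tyrobp* and the kinase SYK.

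RNA was sequenced from 12 libraries of primary microglia from newborn C57BL/6J mice, grown from cortex and hippocampus. The cultures were WT (T13, T33 and T43) or carried the R47H knock-in allele of *Trem2* on both copies (KI; T15, T22 and T32). Each of the 6 cultures gave 1 library untreated and 1 library after 48 h with 20 ng/ml IL-4, so the 4 groups (untreated WT, untreated KI, IL-4-treated WT and IL-4-treated KI) held 3 libraries each. The study calls the WT mice of this experiment littermates of the KI mice, and its methods describe both pooled WT litters and pups of the KI strain that were cultured singly and genotyped later. The labels do not give the litter of a culture, so cultures may share one, and litter entered no fit. The KI allele also lowers *Trem2* expression, so a difference between genotypes can come from either property of the allele. *Trem2* ranged from 1190 to 1886 TPM in the 6 WT libraries and from 325 to 770 TPM in the 6 KI libraries.

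KI culture T15 stood apart. The sum of 10 astrocyte markers was 5796 TPM in its untreated library and 4423 TPM in its IL-4-treated library, and 217 to 1004 TPM in the other libraries. The 18 microglial markers include *Trem2* itself and its adaptor gene *Tyrobp*. All 18 were on average lower in KI, 6 of them, *Trem2* among these, past the F-test described below. The sum of the 18 was 31813 to 42439 TPM in WT libraries and 13938 to 32114 TPM in KI libraries (22580 to 32114 TPM without T15). The sum of 9 mural cell and fibroblast markers, most of it *Acta2* and *Tagln*, was 175 to 667 TPM in WT and 823 to 1511 TPM in KI. The neuronal genes *Snap25*, *Rbfox3* and *Syt1*, the endothelial genes *Cldn5*, *Cdh5* and *Kdr* and the oligodendrocyte genes *Mog* and *Sox10* were at or near 0, with a highest value of 1.54 TPM. Other genes of the same lists were not. *Olig1* was at 7.49 to 48.3 TPM in WT and 56.3 to 361 TPM in KI (log2 difference 2.69, adjusted p = 0.0438, limma's F-test). The oligodendrocyte-lineage sum was 33.1 to 93.1 TPM in WT and 93.1 to 455 TPM in KI. *Tubb3* and *Map2* were highest in T15, at 27.9 and 27.6 TPM. *Flt1* was at 15.3 to 25.0 TPM untreated and 54.7 to 132 TPM after IL-4. In bulk RNA such as this, fewer cells of a type and less RNA per cell cannot be told apart, and the part of these markers in the genotype differences below was not tested beyond the fits named there.

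The promoter sequences of 4 members are shown because the results turn on them: *Coro1a* fell with both the allele and IL-4, *Tmsb4x* is the most abundant member, *Wasl* was higher in KI, and *Evl* rose with IL-4. Each is the part, not overlapping an annotated exon, of the 250 bases before the start of transcription in RefSeq (build GRCm38.p6). They are written 5′ to 3′ on the strand of the gene, with any STAT6 word (TTCNNNNGAA) or PU.1 word (GAGGAA, or TTCCTC on the other strand) in capitals. STAT6 carries the IL-4 signal to the nucleus, and PU.1 is the lineage factor of macrophages.
*Coro1a*, chr7:126704817-126705066, minus strand: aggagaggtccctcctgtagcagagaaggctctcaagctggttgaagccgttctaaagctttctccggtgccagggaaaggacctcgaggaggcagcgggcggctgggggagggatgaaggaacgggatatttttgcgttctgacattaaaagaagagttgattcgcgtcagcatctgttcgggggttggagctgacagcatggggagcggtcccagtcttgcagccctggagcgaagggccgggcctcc
*Tmsb4x*, chrX:167209316-167209468, minus strand: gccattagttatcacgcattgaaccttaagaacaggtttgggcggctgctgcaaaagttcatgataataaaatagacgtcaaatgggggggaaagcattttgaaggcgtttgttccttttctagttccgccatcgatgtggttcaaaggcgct
*Wasl*, chr6:24665010-24665245, minus strand: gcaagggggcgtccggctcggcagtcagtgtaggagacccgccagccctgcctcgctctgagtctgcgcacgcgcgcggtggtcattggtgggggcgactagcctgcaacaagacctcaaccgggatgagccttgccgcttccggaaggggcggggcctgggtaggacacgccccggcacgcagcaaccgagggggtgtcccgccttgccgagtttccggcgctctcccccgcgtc
*Evl* (the first of its entries), chr12:108554470-108554719, plus strand: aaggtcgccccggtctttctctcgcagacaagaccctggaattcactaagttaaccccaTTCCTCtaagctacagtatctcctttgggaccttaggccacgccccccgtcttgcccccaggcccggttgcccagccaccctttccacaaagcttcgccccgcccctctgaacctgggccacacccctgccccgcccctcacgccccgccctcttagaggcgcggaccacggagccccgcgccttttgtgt
A PU.1 word was found in the *Evl* window, and none of the other 3 windows held either word. Of the 31 members with an entry, 7 held a PU.1 word in at least 1 of their 250-base windows (*Wipf1*, *Evl*, *Dock2*, *Vav1*, *Arhgdib*, *Gmfg* and *Fmnl1*) and 2 held a STAT6 word (*Pfn1* and *Arhgdib*). Counted by entry, as some genes have several, 7 of the members' 39 entries held the PU.1 word and 2 the STAT6 word. Of all 32851 promoter entries in the table, 23.3% held the PU.1 word and 5.85% the STAT6 word. A match is a description of the letters and not evidence of binding.

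The mean level of the members over the 12 libraries ran from 5.40 to 14035 TPM. *Tmsb4x* encodes thymosin beta 4, the main protein that holds actin monomers in reserve. It alone made up 2.21% ± 0.0631 of all TPM in untreated WT libraries and 1.22% ± 0.391 in untreated KI libraries. After IL-4 its share was 1.3% ± 0.0407 in WT and 0.879% ± 0.184 in KI (SD, n = 3 each). Cytoplasmic beta-actin (*Actb*, mean 4890 TPM over the 12 libraries), profilin (*Pfn1*, 2179 TPM), which loads monomers for assembly, and cofilin (*Cfl1*, 1659 TPM), which severs filaments, followed. *Diaph1*, a formin that elongates unbranched filaments, was lowest. Together the 37 genes made up 4.30% ± 0.418 of TPM in untreated WT, 2.94% ± 0.576 in untreated KI, 3.44% ± 0.192 in IL-4-treated WT and 2.58% ± 0.305 in IL-4-treated KI (SD, n = 3 each). Most of the fall of this total with IL-4 was that of *Tmsb4x*.

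Messages for the subunits of the Arp2/3 complex, which is built from 1 copy of each of its parts, were not at equal levels. *Arpc1b*, the haematopoietic form of the ARPC1 subunit, was highest, with a mean of 1139 TPM, and *Arpc2*, which with *Arpc4* forms the core that holds the complex together, came next at 814 TPM. Each was above the next gene in all 12 libraries. *Arpc5* (561 TPM), *Arpc4* (524 TPM) and *Arpc3* (499 TPM) were close: *Arpc5* exceeded *Arpc4* in 7 of 12 libraries and *Arpc4* exceeded *Arpc3* in 9, so their order did not hold across libraries. *Actr3* (336 TPM) was below *Arpc3* in all 12 libraries, and *Actr2* (99.5 TPM) below *Actr3* in all 12, by 2.64- to 4.20-fold, although ARP2 and ARP3 sit side by side in the complex as the first monomers of the new branch. *Arpc5l* (87.9 TPM) and *Arpc1a* (58.7 TPM), the alternative forms of ARPC5 and ARPC1, had the lowest means. *Actr2* exceeded *Arpc5l* in 8 of 12 libraries and *Arpc5l* exceeded *Arpc1a* in 11, so the order of these 3 did not hold in every library. *Actr3* shares 34.2% of the 31-base words in its transcripts with other genes, 33.4% with the pseudogene *Gm8822* (0.183 TPM), and *Arpc1b* shares 30.5%, including 17.2% with the overlapping *Pdap1* on the opposite strand (25.2 TPM). The libraries did not keep strand, so reads from such shared stretches cannot be told apart.

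**Figure D1:**
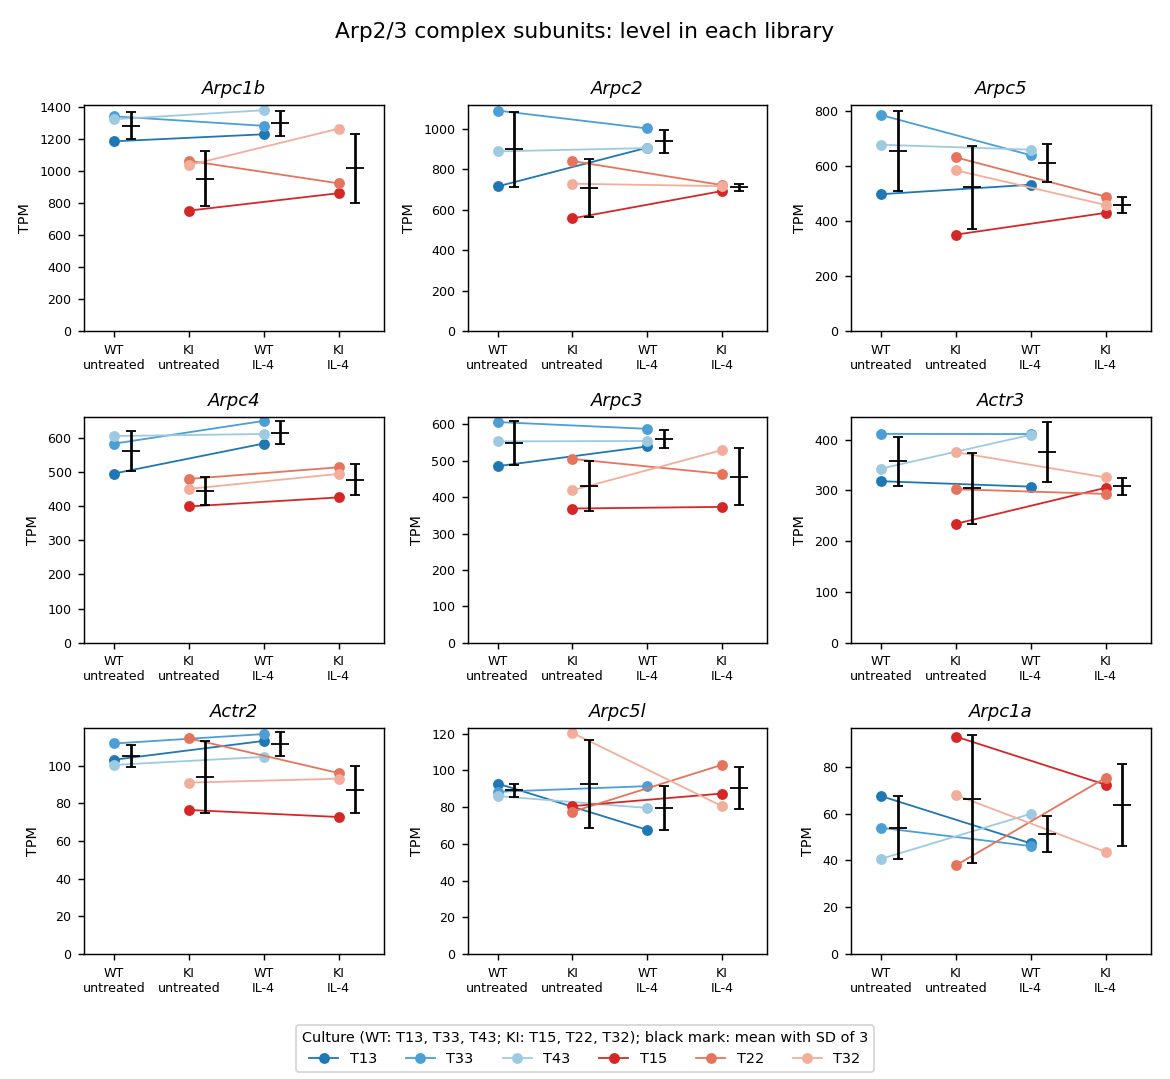
TPM of the 9 Arp2/3 subunit genes in each library (y axis from 0), with the groups on the x axis, lines joining the untreated and IL-4-treated library of a culture, and black marks for the mean and SD of 3. In *Arpc4* the KI libraries lie below all WT libraries of their treatment, whereas those of *Arpc1a* and *Arpc5l* overlap between genotypes.

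The first question was whether the *Trem2* allele changed the actin machinery. Each member's log2(TPM + 1) was fitted with limma across all 11204 genes, and the effect of genotype was tested in 2 ways: with an F-test on the genotype differences in both treatments, and with a 1-coefficient test on their average, each Benjamini-Hochberg adjusted over all genes with a threshold of 0.05. This fit held no culture term and counted the 2 libraries of a culture as independent. Its p-values measure the spread between the libraries of a group. Some cultures may share a litter or a day of preparation. Of the 37 members, 31 were lower in KI and 6 higher, with a median difference of -0.35 on the log2 scale. Over all genes tested 36.9% were lower in KI and the median was 0.13, which quantile normalization moved to -0.08 and median-ratio scaling to 0.02. Under both scalings 32 members were lower, with medians of -0.40 and -0.47. The shift was smaller with marker levels in the fit. With the mean level of the astrocyte markers as a covariate 26 members were lower, with a median of -0.13, against 0.07 over all genes. With that of the 18 microglial markers, a fit added after the data were seen, 21 were lower, with a median of -0.09, against 0.08 over all genes. The microglial score includes *Trem2*, which the allele itself lowers, so it is not independent of genotype. By the F-test 1 member of 37, *Coro1a*, passed, where 1.65% of all genes were called. By the 1-coefficient test 6 members fell (*Coro1a*, *Tmsb4x*, *Arhgdib*, *Lcp1*, *Fermt3* and *Gmfg*), against 1.19% of all genes, and 1 member rose (*Wasl*), against 3.95% of all genes. With the culture as a random block, 3 of the 6 stayed below the threshold in the 1-coefficient test (*Coro1a*, *Tmsb4x* and *Arhgdib*), where 0.732% of all genes were called lower, and *Wasl* no longer passed (adjusted p = 0.0760). Without culture T15, 3 were called lower (*Coro1a*, *Tmsb4x* and *Gmfg*), against 0.563% of 11003 genes. In that fit 29 of the 37 members were lower, with a median of -0.22, against 0.09 over all genes.

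*Coro1a* encodes coronin 1A, which sits on filaments of leukocytes and counteracts Arp2/3 branches. Its untreated WT libraries, in the order T13, T33 and T43 used throughout, held 400.0, 465 and 402 TPM, and its untreated KI libraries, in the order T15, T22 and T32, held 205, 228 and 221 TPM. After IL-4 it was at 211, 224 and 202 TPM in WT and at 119, 102 and 158 TPM in KI. Every KI library was below every WT library of the same treatment, and untreated KI libraries were close to IL-4-treated WT libraries. KI averaged 0.551 of WT (log2 difference -0.86, standard error 0.12, 95% interval -1.11 to -0.61, and by the F-test of limma adjusted p = 0.00885). The F-test gave an adjusted p of 0.0162 with the culture as a block and of 0.0317 without T15. Within a treatment the difference was -0.95 in untreated cultures (adjusted p = 0.0183, limma), where 0.91% of all genes passed, and -0.77 after IL-4 (adjusted p = 0.182). The call was lost without WT culture T33 (adjusted p = 0.122) and without WT culture T43 (0.0781), with differences of -0.80 and -0.89. With the microglial marker covariate no gene of the whole table passed the 1-coefficient test, and the *Coro1a* difference was -0.82 (standard error 0.23).

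*Coro1b* and *Coro1c*, the coronins of most other cells, moved less. *Coro1b* was at 252, 264 and 246 TPM in WT and 188, 216 and 238 TPM in KI without treatment, and at 270.0, 335 and 366 TPM in IL-4-treated WT and 200.3, 237 and 343 TPM in IL-4-treated KI, a difference of -0.30 that did not pass (adjusted p = 0.467, limma's F-test). *Coro1c* was at 115, 174 and 158 TPM in WT and 93.0, 152 and 171 TPM in KI without treatment, and at 136, 143 and 141 TPM in IL-4-treated WT and 139, 156 and 163 TPM in IL-4-treated KI. The genotypes overlapped for *Coro1c* in both treatments, and its average KI level was 0.998 of WT (95% interval of the log2 difference -0.34 to 0.33). *Gmfg*, the haematopoietic form of glia maturation factor, which removes Arp2/3 branches, had the largest difference of all 37 in size. It was at 38.8, 18.3 and 24.7 TPM in WT and 18.4, 2.91 and 8.24 TPM in KI without treatment, and at 33.8, 41.0 and 49.4 TPM in IL-4-treated WT and 6.78, 19.8 and 15.6 TPM in IL-4-treated KI. The groups did not overlap after IL-4 and overlapped in untreated cultures, and the difference was -1.60 (standard error 0.37, adjusted p = 0.0265, 1-coefficient test of limma; 0.0856 by the F-test and 0.0653 by the 1-coefficient test with the culture as a block). *Gmfg* shares 11.3% of its 31-base words with the pseudogene *Gmfg-ps* (0.0143 TPM).

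None of the 9 Arp2/3 subunit genes passed either test. Of them 7 were lower in KI, with log2 differences from -0.41 to -0.26, and kept that direction under both other scalings. Without T15 the differences of these 7 ran from -0.28 (*Arpc2* and *Arpc4*) to -0.14 (*Actr2*). With the astrocyte covariate their differences shrank to between -0.21 (*Arpc4*) and -0.05 (*Arpc5*). With the microglial covariate their differences ran from -0.24 (*Arpc4*) to 0.11 (*Actr2*). *Arpc1b* was at 1187, 1343 and 1325 TPM in WT and 754, 1065 and 1038 TPM in KI without treatment, and at 1231, 1284 and 1381 TPM in IL-4-treated WT and 863, 925 and 1266 TPM in IL-4-treated KI. Untreated groups were apart and IL-4-treated groups overlapped, with a difference of -0.41 (95% interval -0.68 to -0.14, adjusted p = 0.205 by limma's F-test and 0.0754 by the 1-coefficient test). *Arpc4* was at 496, 583 and 605 TPM in WT and 399, 479.7 and 451 TPM in KI without treatment, and at 583, 649.7 and 611 TPM in IL-4-treated WT and 426, 514 and 494 TPM in IL-4-treated KI, apart in both treatments, with a difference of -0.35 (95% interval -0.57 to -0.14, adjusted p = 0.168 by limma's F-test and 0.0584 by the 1-coefficient test).

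*Arpc5* was at 497, 784 and 677 TPM in WT and 351, 631 and 584 TPM in KI without treatment, and at 532, 639 and 659 TPM in IL-4-treated WT and 429, 488 and 458 TPM in IL-4-treated KI, a difference of -0.37 (adjusted p = 0.398, limma's F-test). *Arpc2* (-0.37), *Arpc3* (-0.33), *Actr2* (-0.27) and *Actr3* (-0.26) did not pass limma's F-test either, at adjusted p-values of 0.270 to 0.526. The alternative subunits differed less from 0 relative to their spread. *Arpc1a* was at 67.4, 53.9 and 40.6 TPM in WT and 92.8, 37.9 and 67.9 TPM in KI without treatment, and at 47.2, 46.1 and 59.9 TPM in IL-4-treated WT and 72.3, 75.3 and 43.6 TPM in IL-4-treated KI, 0.26 higher in KI on average with overlapping groups. Its difference was 0.06 without T15, -0.14 with the astrocyte covariate and -0.33 with the microglial covariate. *Arpc5l* was at 92.8, 88.3 and 86.0 TPM in WT and 80.5, 77.4 and 120.4 TPM in KI without treatment, and at 67.6, 91.4 and 79.5 TPM in IL-4-treated WT and 87.3, 103 and 80.4 TPM in IL-4-treated KI, 0.11 higher in KI, also with overlapping groups, and -0.02 and -0.01 under quantile and median-ratio scaling. The 9 subunits together made up 0.455% ± 0.0558 of TPM in untreated WT and 0.361% ± 0.0613 in untreated KI, and 0.464% ± 0.0272 and 0.367% ± 0.0343 after IL-4 (SD, n = 3 each). Divided by the sum of the 18 microglial markers, the same total was 0.135 ± 0.0097 in untreated WT and 0.175 ± 0.0329 in untreated KI, and 0.117 ± 0.0134 and 0.129 ± 0.0132 after IL-4.

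Among the proteins that activate the complex, the 2 WASP genes pointed in opposite directions. *Was*, the haematopoietic WASP, was at 10.4, 13.1 and 8.13 TPM in WT and 4.12, 8.75 and 12.9 TPM in KI without treatment, and at 12.4, 10.1 and 14.8 TPM in IL-4-treated WT and 5.79, 6.35 and 10.3 TPM in IL-4-treated KI, with overlapping groups in both treatments and an average of -0.52 (adjusted p = 0.587, limma's F-test). *Wasl*, which encodes the widely expressed N-WASP, was at 28.7, 27.1 and 28.2 TPM in WT and 40.9, 46.6 and 45.7 TPM in KI without treatment. After IL-4 it was at 21.0, 25.2 and 29.9 TPM in WT and 34.3, 34.4 and 53.7 TPM in KI. Every KI library was above every WT library of the same treatment, which 3.7% of all genes also showed, and the difference was 0.65 (standard error 0.17, adjusted p = 0.0408 by limma's 1-coefficient test and 0.125 by the F-test). Without T15 it was 0.73 (adjusted p = 0.0699, 1-coefficient test of limma). *Wipf1*, the partner that stabilises WASP, ran from 17.8 to 44.7 TPM, with a difference of -0.22 (adjusted p = 0.818, limma's F-test).

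*Tmsb4x* was at 21618, 22844 and 21971 TPM in WT and 8565, 16341 and 11747 TPM in KI without treatment, and at 13376, 13020 and 12565 TPM in IL-4-treated WT and 6862, 10528 and 8986 TPM in IL-4-treated KI. Every KI library was below every WT library of the same treatment, and T15 was lowest in both. The difference was -0.75 (standard error 0.17, adjusted p = 0.0243 by limma's 1-coefficient test, 0.0354 with the culture as a block and 0.0732 by the F-test), and -0.55 without T15 (adjusted p = 0.0470, 1-coefficient test of limma). With the microglial markers as a covariate it was -0.11 (standard error 0.25). *Pfn1* ran from 1554 to 2805 TPM, with a difference of -0.39, and *Cfl1* from 1400 to 2000 TPM, with -0.07, and neither passed (adjusted p = 0.292 and 0.897, limma's F-test). *Actb* was at 4263, 6782 and 5680 TPM in WT and 3949, 4892 and 4876 TPM in KI without treatment, and at 4773, 5855 and 5491 TPM in IL-4-treated WT and 3896, 3988 and 4232 TPM in IL-4-treated KI (difference -0.34, adjusted p = 0.354, limma's F-test). *Actg1*, the other cytoplasmic actin, was at 648, 1607 and 1272 TPM, 1324, 1098 and 1460 TPM, 651, 1580 and 1213 TPM and 1060, 1012 and 1286 TPM in the same 4 groups, and its low values were both libraries of WT culture T13. *Actg1* shares 40.2% of its 31-base words with other genes, 36.6% with the pseudogene *Gm12715* (0.365 TPM).

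The bundling and capping proteins were *Lcp1* (L-plastin, which bundles filaments in leukocytes), *Capg* (which caps their fast-growing ends) and *Cotl1* (coactosin-like, a filament-binding protein). *Lcp1* was at 494, 646 and 581 TPM in WT and 242, 447 and 441 TPM in KI without treatment, and at 404, 602 and 533 TPM in IL-4-treated WT and 284, 299 and 376 TPM in IL-4-treated KI, apart in both treatments. Its difference was -0.66 (standard error 0.17, adjusted p = 0.0375 by limma's 1-coefficient test, 0.116 by the F-test and 0.0583 by the 1-coefficient test with the culture as a block), and -0.48 without T15 (adjusted p = 0.0885, 1-coefficient test of limma). *Capg* and *Cotl1* did not pass for genotype (adjusted p = 0.475 and 0.582, limma's F-test).

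*Arhgdib*, which encodes a GDP-dissociation inhibitor of leukocytes, was at 672, 656 and 750.4 TPM in WT and 403, 439 and 442 TPM in KI without treatment, and at 701, 653 and 711 TPM in IL-4-treated WT and 512, 443 and 703 TPM in IL-4-treated KI. The untreated groups did not overlap, and after IL-4 the T32 library lay within the WT range. The difference was -0.52 (standard error 0.12, adjusted p = 0.0221 by limma's 1-coefficient test, 0.0397 with the culture as a block and 0.0600 by the F-test), and -0.47 without T15 (adjusted p = 0.0736, 1-coefficient test of limma). *Fermt3*, which encodes kindlin-3, the adaptor that activates leukocyte integrins, was at 127, 162 and 151 TPM in WT and 52.5, 81.1 and 144 TPM in KI without treatment, and at 227, 189 and 217 TPM in IL-4-treated WT and 121, 114 and 139.6 TPM in IL-4-treated KI. Untreated T32 lay within the WT range, the IL-4-treated groups were apart, and the difference was -0.76 (standard error 0.19, adjusted p = 0.0395 by limma's 1-coefficient test, 0.119 by the F-test, 0.0694 by the 1-coefficient test with the culture as a block and 0.0895 by the 1-coefficient test without T15).

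The exchange factors that load Rac and Cdc42 were lower in KI without passing: *Dock2* (16.7 to 78.7 TPM, -0.55), *Dock8* (-0.47) and *Vav1* (56.7 to 160.3 TPM, -0.54), with adjusted p-values of 0.240, 0.463 and 0.229 (limma's F-test). *Dock8* was at 41.1, 43.5 and 43.1 TPM in WT and 18.3, 35.7 and 43.4 TPM in KI without treatment, and at 28.3, 31.8 and 26.3 TPM in IL-4-treated WT and 22, 24.9 and 15.3 TPM in IL-4-treated KI. The GTPases themselves differed less, *Cdc42* (693 to 915 TPM) by -0.20 (95% interval -0.41 to 0.02) and *Rac1* (489 to 644 TPM) by -0.07 (95% interval -0.28 to 0.15). Of the 31-base words of *Rac1*, 50.7% are shared with *Daglb* on the opposite strand (101 TPM), so its level is uncertain. *Myo1f*, a leukocyte motor (80.6 to 274 TPM), *Fmnl1*, a leukocyte formin (25.8 to 59.0 TPM), and *Vasp*, which speeds filament growth at the leading edge, differed by -0.52, -0.58 and -0.49 without passing (adjusted p = 0.296, 0.229 and 0.233, limma's F-test). *Vasp* was at 59.0, 61.4 and 65.2 TPM in WT and 39.0, 61.3 and 38.1 TPM in KI without treatment, and at 78.6, 54.3 and 75.8 TPM in IL-4-treated WT and 45.1, 45.0 and 52.0 TPM in IL-4-treated KI. *Diaph1* was at 4.56, 3.44 and 4.45 TPM, 3.86, 15 and 5.86 TPM, 4.86, 4.04 and 2.69 TPM and 6.09, 3.48 and 6.5 TPM in the same 4 groups, 0.52 higher in KI with a 95% interval of -0.24 to 1.28.

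The 11 members largely restricted to cells of the blood lineage (*Was*, *Coro1a*, *Lcp1*, *Fermt3*, *Dock2*, *Dock8*, *Vav1*, *Arhgdib*, *Gmfg*, *Myo1f* and *Fmnl1*) were all lower in KI on average, with differences from -1.60 to -0.47 and a median of -0.55. The 26 other members had a median of -0.27, with 20 lower and 6 higher, and the 18 microglial markers a median of -0.65. With the astrocyte covariate the 11 were again all lower, with a median of -0.36. With the microglial covariate 6 of the 11 were lower, with a median of -0.05. In that fit the values of *Was* (0.32), *Vav1* (0.30), *Dock2* (0.19), *Myo1f* (0.13) and *Dock8* (0.04) were above 0, those of *Fermt3* (-0.20) and *Lcp1* (-0.33) were closer to 0 than before, and *Gmfg* was at -2.47 (standard error 0.71). In both treatments, every KI library lay below every WT library for 4 of the 37 members (*Arpc4*, *Coro1a*, *Lcp1* and *Tmsb4x*), and 1.23% of all genes did the same.

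**Figure D2:**
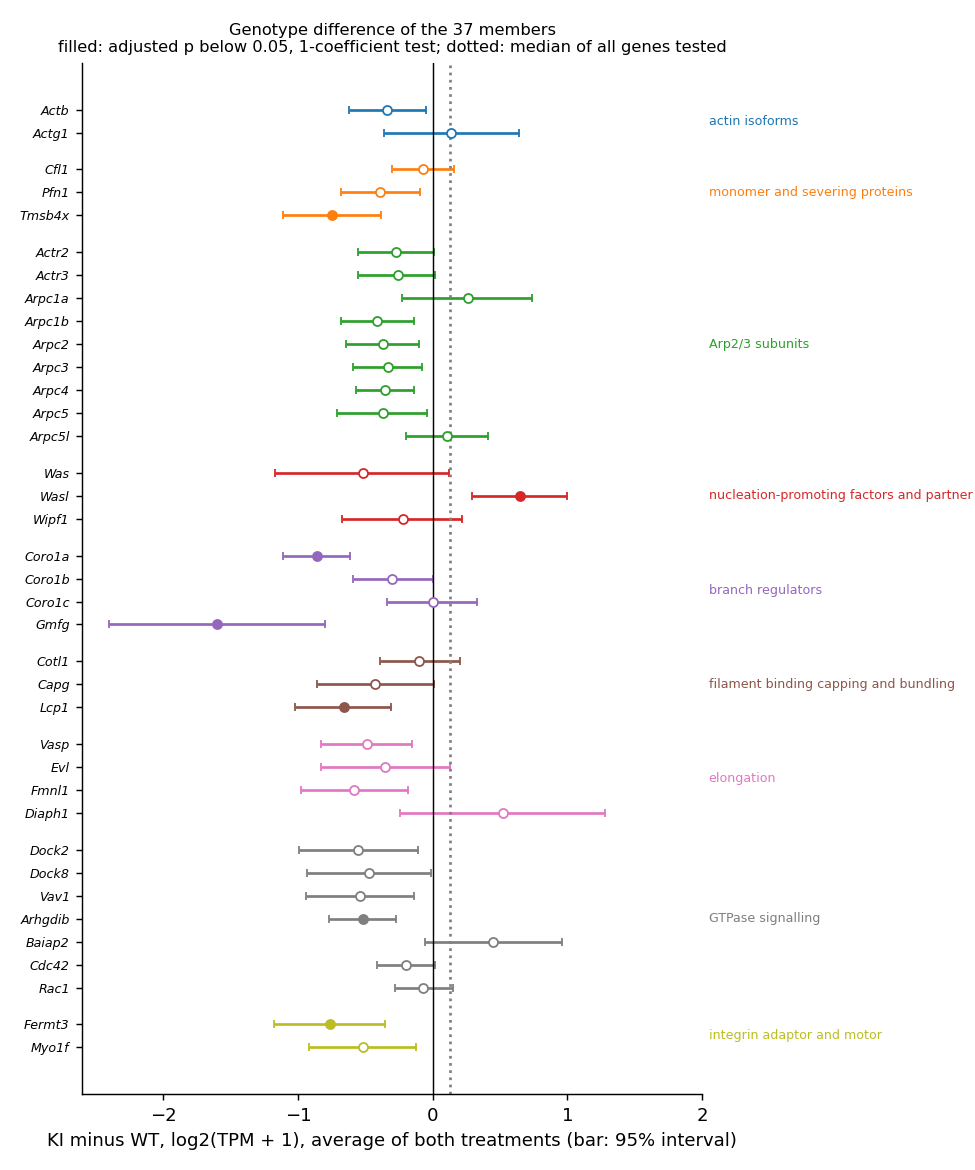
Difference between KI and WT for each of the 37 members on the log2(TPM + 1) scale (x axis, average of both treatments, bars for the 95% interval), grouped by role. Filled points passed the 1-coefficient test: 6 lie to the left of 0 and *Wasl* to the right, while the median of all genes tested, the dotted line, is at 0.13.

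The second question was how IL-4, the cytokine of the alternative activation of macrophages, acted on these genes. The members did not move in a common direction: 20 were higher and 17 lower, with a median of 0.05, against 0.04 over all genes tested. After quantile normalization 12 were higher and 25 lower, with a median of -0.10, and after median-ratio scaling 18 and 19. By the F-test 3 members of 37 passed, where 0.893% of all genes were called: *Coro1a* fell, and *Evl* and *Baiap2* rose. The libraries of a culture share their cells, and with the culture as a fixed block 6 members passed. *Evl*, *Baiap2*, *Capg* and *Cotl1* rose, against 1.79% of all genes, and *Coro1a* and *Tmsb4x* fell, against 0.348% of all genes. Counted by direction alone, 6 members were higher with IL-4 in all 6 cultures (*Arpc4*, *Coro1b*, *Cotl1*, *Capg*, *Evl* and *Baiap2*), as were 5.73% of all genes, and 2 were lower in all 6 (*Coro1a* and *Tmsb4x*), as were 2.51%.

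On the log2 scale *Coro1a* fell by 0.90 and passed limma's F-test (standard error 0.12 and adjusted p = 0.00302). The change was -0.92, -1.05 and -0.99 in WT cultures T13, T33 and T43 and -0.78, -1.16 and -0.49 in KI cultures T15, T22 and T32. IL-4 took it to 0.537 of its untreated level. The call was lost without WT culture T43 (adjusted p = 0.0548, limma's F-test). *Tmsb4x* fell by 0.61 (adjusted p = 0.317 by limma's F-test and 0.000637 with the culture as a block), with changes of -0.69, -0.81 and -0.81 in the same WT cultures and -0.32, -0.63 and -0.39 in the KI cultures. Without T15 it passed the F-test (adjusted p = 0.0324, limma). All 6 cultures moved the same way for both genes, whose products act on branches and on free monomers. *Dock8* came next in size among the members that were lower, at -0.56 without passing (adjusted p = 0.727, limma's F-test).

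*Evl*, of the same family of elongation factors as *Vasp*, was at 63.5, 44.4 and 57.1 TPM in WT and 39.2, 48.8 and 35.0 TPM in KI without treatment, and at 106, 139.9 and 130.3 TPM in IL-4-treated WT and 67.9, 81.4 and 193 TPM in IL-4-treated KI. Every treated library was above every untreated library of any culture. The difference was 1.25 (standard error 0.22, adjusted p = 0.0391 by limma's F-test and 0.0199 with the culture as a block), or 2.37-fold. Leaving out T13, T22, T33 or T43 ended the call (adjusted p = 0.12, 0.0721, 0.258 and 0.252, limma's F-test), as did quantile normalization (0.101), median-ratio scaling (0.122), no filter on low values (0.335), no variance trend (0.181) and the microglial covariate (0.0691). *Baiap2*, which encodes IRSp53, a membrane-bending adaptor between Cdc42, Rac and actin regulators, was at 4.28, 9.80 and 4.81 TPM in WT and 12.2, 16.7 and 15.9 TPM in KI without treatment, and at 36.9, 26.5 and 27.1 TPM in IL-4-treated WT and 26.9, 27.6 and 19.0 TPM in IL-4-treated KI. Each of the 6 cultures was higher after treatment, with an average of 1.41 (standard error 0.24, adjusted p = 0.0107 by limma's F-test and 0.0146 with the culture as a block), and the call was lost without T13 (0.177) or T43 (0.178).

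*Capg* was at 476, 870.3 and 760.5 TPM in WT and 398, 644 and 601 TPM in KI without treatment, and at 1044, 1485 and 1239 TPM in IL-4-treated WT and 604, 847 and 1281 TPM in IL-4-treated KI. It rose in all 6 cultures, by 0.78 on average (adjusted p = 0.275 by limma's F-test and 0.00222 with the culture as a block). *Cotl1* was at 316, 293 and 265 TPM in WT and 189.8, 265 and 245 TPM in KI without treatment, and at 369.8, 429.7 and 316 TPM in IL-4-treated WT and 330.0, 387 and 527 TPM in IL-4-treated KI. It rose by 0.58 on average (adjusted p = 0.133 by limma's F-test and 0.00997 with the culture as a block), so the capping and filament-binding genes passed once the level of each culture was taken into account. The 9 Arp2/3 subunits had log2 differences between -0.11 and 0.12, with adjusted p-values of 0.991 to 1.00 (limma's F-test), and those of the actins were -0.12 and -0.10.

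**Figure D3:**
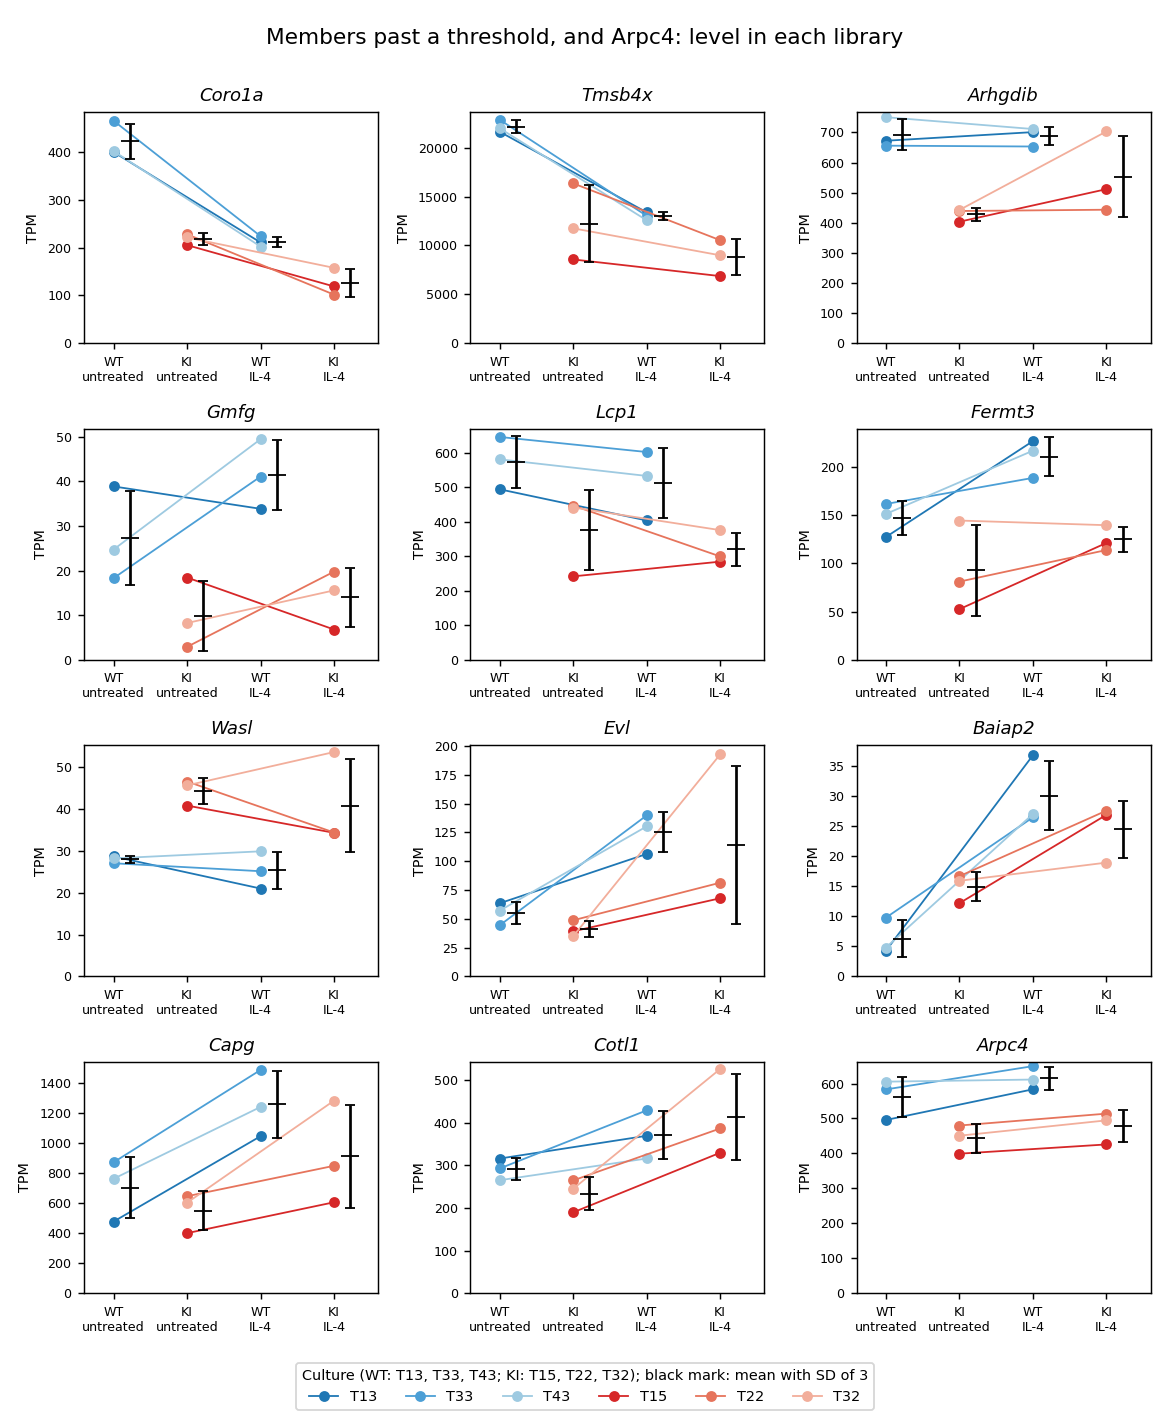
TPM of the 11 members past a threshold in either comparison, and of *Arpc4*, in each library (y axis from 0), with lines joining the libraries of a culture and black marks for the mean and SD of 3. *Coro1a* and *Tmsb4x* fall with IL-4 in all 6 cultures, and *Evl*, *Baiap2*, *Capg* and *Cotl1* rise in all 6.

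The third question was whether the KI allele altered the response to IL-4. No member passed the interaction test, nor did any of the 11204 genes (0.0%), and at an unadjusted p below 0.05 there were 357 genes, 1 of them a member (limma). With the culture as a block no gene passed either, and 551 genes, 3 of them members, had an unadjusted p below 0.05 (*Baiap2*, *Cotl1* and *Tmsb4x*). *Baiap2* rose by 2.16 in WT and by 0.67 in KI, a difference of -1.48 (95% interval -2.51 to -0.46, unadjusted p = 0.00779 and adjusted p of 1.00, limma). In untreated cultures no KI library was as low as any WT library, and the treated groups overlapped. The *Coro1a* change was -0.99 in WT and -0.81 in KI, and the 95% interval of the difference was -0.33 to 0.68.

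**Figure D4:**
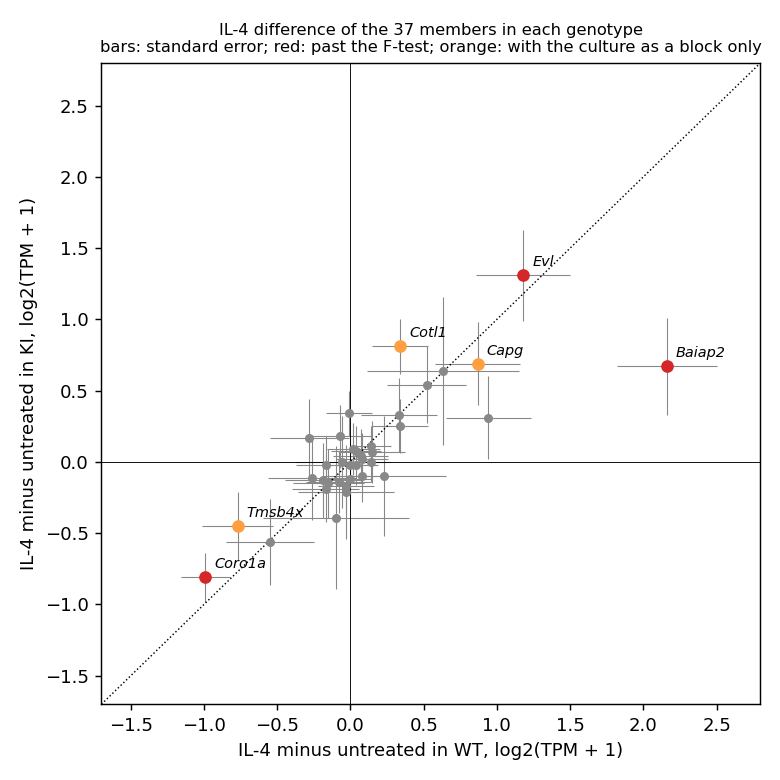
Difference between IL-4-treated and untreated libraries on the log2(TPM + 1) scale in WT (x axis) and KI (y axis) for the 37 members, with standard errors and a dotted line of equality. Red points passed limma's F-test (*Coro1a*, *Evl* and *Baiap2*), orange points passed with the culture as a block only (*Tmsb4x*, *Capg* and *Cotl1*), and *Baiap2* lies furthest from the line, at 2.16 in WT and 0.67 in KI.

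Ratios between related genes show the balance of forms within a library, free of scaling between libraries. For 7 ratios, whole cultures were permuted for genotype (exact, two-sided, with a smallest possible p of 0.1 for 3 cultures against 3) and signs were flipped within the 6 cultures for IL-4 (exact, two-sided, smallest possible p of 0.0312), and p-values were adjusted over the 7. *Coro1a* exceeded *Coro1b* by 1.59- to 1.76-fold in untreated WT libraries, matched it in untreated KI libraries (0.931 to 1.09), and was below it after IL-4 in WT (0.552 to 0.780) and in KI (0.429 to 0.593). The ratio fell by 1.19 on the log2 scale with IL-4, in 6 of 6 cultures (adjusted p = 0.0729, exact sign-flip test). *Coro1a*/*Coro1c* fell by 0.95 and *Vasp*/*Evl* by 1.14 with IL-4, also in 6 of 6 cultures and at the smallest p that the design allows. In KI, the ratio differed from WT on the log2 scale by -0.56 for *Coro1a*/*Coro1b*, -0.86 for *Coro1a*/*Coro1c*, -1.17 for *Was*/*Wasl*, -0.66 for *Arpc1b*/*Arpc1a* and -0.48 for *Arpc5*/*Arpc5l* (p = 0.1 each, the smallest possible, adjusted p = 0.14, exact permutation test). *Was*/*Wasl* was 0.288 to 0.590 in the 6 WT libraries and 0.101 to 0.283 in the 6 KI libraries. *Actb*/*Actg1* differed by -0.47 (adjusted p = 0.233, exact permutation test) and *Vasp*/*Evl* by -0.14 (0.9).

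**Figure D5:**
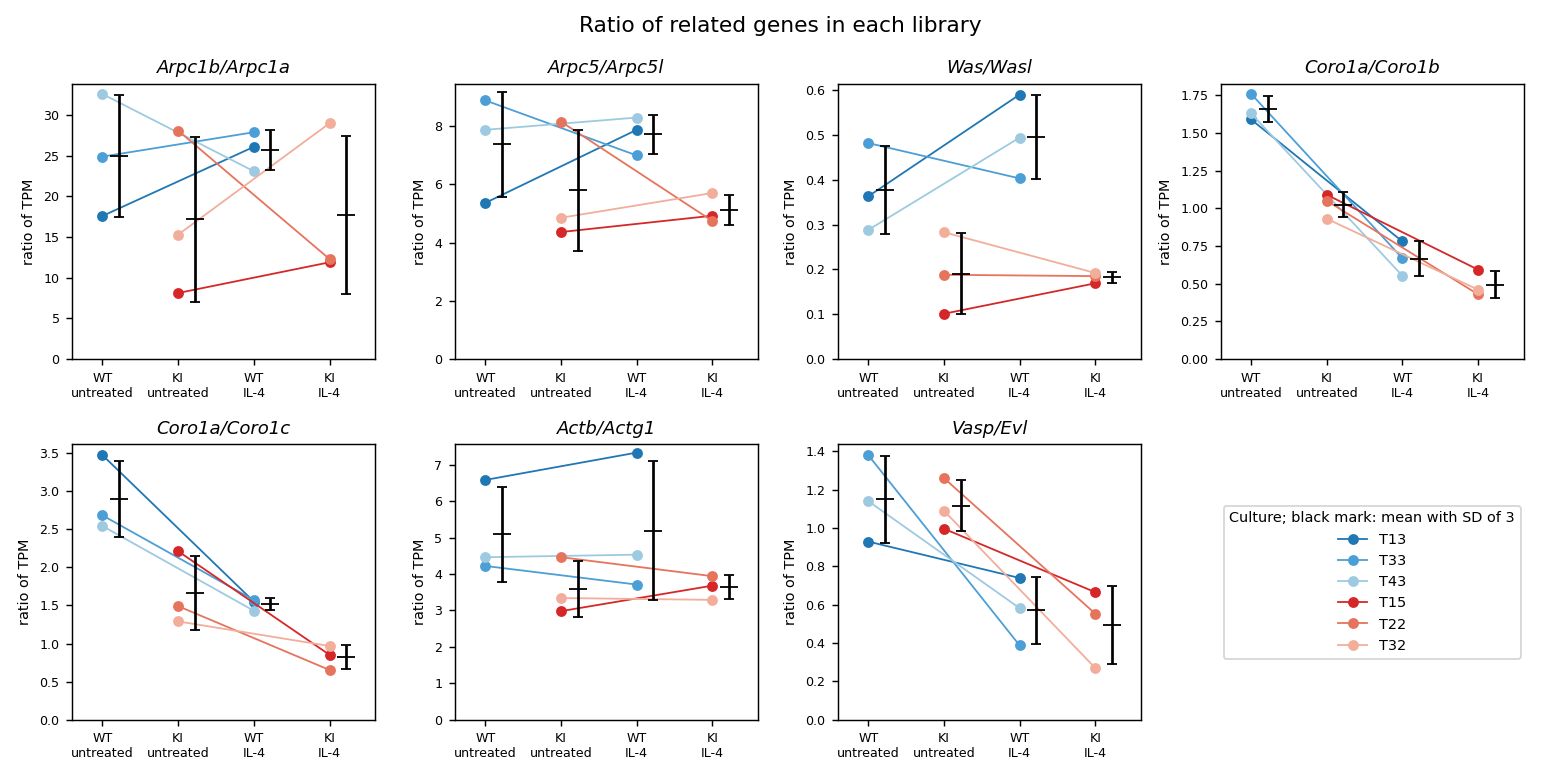
Ratio of TPM between related genes in each library (y axes from 0), with the groups on the x axis, lines joining the libraries of a culture and black marks for the mean and SD of 3. The *Coro1a*/*Coro1b* and *Coro1a*/*Coro1c* ratios fall with IL-4 in each culture, and no *Was*/*Wasl* ratio in KI exceeds 0.283.

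For context, 68 further regulators of actin were examined, 64 of which passed the filter. Of these 64, 33 were lower in KI and 31 higher, with a median of -0.06 (39 and 25 after quantile normalization). Over all genes tested 36.9% were lower and the median was 0.13. By limma's F-test 5 passed, where 1.65% of all genes were called. The severing protein gelsolin (*Gsn*) was lower (-0.54, adjusted p = 0.0323; -0.56 and 0.0508 without T15). Tropomyosin 1 (*Tpm1*, 1.31, adjusted p = 0.0118), alpha-actinin 4 (*Actn4*, 0.72, adjusted p = 0.0355), cortactin (*Cttn*, 2.06, adjusted p = 0.0481) and kindlin-2 (*Fermt2*, 2.02, adjusted p = 0.0407) were higher. *Cttn* was at 2.87 to 24.3 TPM in WT libraries and 32 to 113 TPM in KI libraries, highest in T15, and its difference without T15 was 1.65 (adjusted p = 0.167, limma's F-test). *Fermt2* moved likewise, at 1.73 without T15 (adjusted p = 0.162), whereas *Tpm1* (1.53) and *Actn4* (0.76) passed without T15 (adjusted p = 0.0065 and 0.0308, limma's F-test). With the culture as a random block *Tpm1* passed the F-test (adjusted p = 0.0178, limma), and *Gsn* (0.0550), *Actn4* (0.0634), *Fermt2* (0.0722) and *Cttn* (0.0758) did not. The 1-coefficient test called 1.19% of all genes lower and 3.95% higher. By this test *Hcls1*, a leukocyte relative of cortactin, was also lower, and *Cfl2*, *Dstn*, *Pfn2*, *Gmfb* and *Ezr* were also higher. Of these *Cfl2* passed with the block (adjusted p = 0.0455, limma) and *Hcls1* (0.0711) and the others did not (0.0522 to 0.0860). None of these 6 passed without T15 (adjusted p = 0.0714 to 0.112, 1-coefficient test of limma), and the *Ezr* difference went from 1.27 to 0.83. *Cfl2*, *Pfn2* and *Gmfb* are the forms of cofilin, profilin and glia maturation factor of tissues other than blood, and *Dstn* and *Ezr* encode destrin and ezrin. With IL-4, *Gsn* rose by 0.59 (by limma's F-test, adjusted p = 0.0200), and with the culture as a block *Zyx*, which encodes the adhesion protein zyxin, passed limma's F-test as well (adjusted p = 0.0189). Its change was 0.98 in WT and -0.09 in KI, higher in 4 of 6 cultures, its averaged difference did not pass with the block (adjusted p = 0.0763, 1-coefficient test of limma), and its interaction with the block had an unadjusted p of 0.000643 and an adjusted p of 0.817 (limma).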

How the data were processed

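The 12 libraries of primary microglia were made by the authors from poly(A)-primed cDNA (SMART-Seq v4 and ThruPLEX, which do not mark strand) and sequenced as paired ends. Reads were trimmed with Trim Galore, quantified with Salmon against ENSEMBL GRCm38 and summarised per gene with tximport. Tool versions are not given in the sources used here. The deposited table holds TPM as computed by the authors, with every library summing to 1000000, and although the labels state a nominal sequencing depth, the read count of each library is not known here, so no counting interval is given. The authors' own test, DESeq2 on counts, could not be run on TPM.

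Values were analysed as log2(TPM + 1), and fold changes on this scale understate the change of low genes. Genes with a mean above 1.5 were kept (11204 of 48623) and fitted with limma 3.58.1 in R 4.3.3, with 1 coefficient per group of 3 libraries and a variance trend, and p-values were Benjamini-Hochberg adjusted over all genes fitted. The F-test over the contrasts of both treatments (for IL-4, of both genotypes) gave the main result. The ratios were tested by exact permutation. The culture name in the labels pairs the untreated and IL-4-treated libraries of a culture; the deviations of paired libraries from their group means correlated at 0.34 (T13), 0.378 (T15), 0.121 (T22), 0.0792 (T32), 0.104 (T33) and 0.104 (T43), and the consensus correlation of the random block was 0.198. The block was random for genotype and fixed for IL-4 and the interaction. Alternatives were another pseudocount (0.1), other filters, quantile and median-ratio scaling, no variance trend, the block, an astrocyte covariate, the 1-coefficient test and leaving out each culture. The microglial marker covariate was added after the data were seen, as was the use of both covariates for the medians.

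The members and lists were chosen with earlier results of these data known. All members are named; values in every library are given for those past a threshold, for the 3 with the smallest p in each direction and for the genes of the ratios. Sequences shared between genes were counted as 31-base words of the transcripts, and promoter sequences were read from a RefSeq table of build GRCm38.p6. No replicate library was identical to another.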

Additional observations from a re-analysis of the deposited data

How the results depend on the processing

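The number of members past the genotype threshold was 1 in the main analysis. It was 0 without a filter on low values, 0 without a variance trend, 0 with the microglial covariate (added after the data were seen), 0 in IL-4-treated cultures alone and 7 by the 1-coefficient test. Leaving out a culture gave 0 to 3: 0 without T33 or T43, 2 without T22 (*Coro1a* and *Tmsb4x*) and 3 without T32. For IL-4 the number was 3, and 1 without a variance trend, 6 with the culture as a replicate block, 6 by the 1-coefficient test with that block, 6 with the astrocyte covariate and 0 in KI cultures alone. Leaving out a culture gave 0 to 4: 1 without T13, 0 without T43 and 4 without T15. The interaction gave 0 in all 15 alternatives. Among the members, the block changed no call beyond those given beside the results. The members' median genotype difference was -0.128 with the astrocyte covariate and -0.091 with the microglial covariate, both applied to the medians after the data were seen. It ranged from -0.473 to -0.219 under the other alternatives, and the median IL-4 difference from -0.098 to 0.107 under all. Some ratios changed direction when a culture was left out: with IL-4, *Arpc1b*/*Arpc1a* ranged from -0.08 to 0.34, *Arpc5*/*Arpc5l* from -0.13 to 0.14 and *Actb*/*Actg1* from -0.04 to 0.06, and *Vasp*/*Evl* between genotypes from -0.25 to 0.06. *Coro1a* missed the threshold for genotype without a filter (adjusted p = 0.0579, limma's F-test) and without a variance trend (0.0674), and for IL-4 without a variance trend (0.0713). The cause of these changes was not tested. The read count of each library is not known, and 3 cultures a genotype limit the precision.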
